A study of Mus musculus with 5 samples.

Results

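Cytosolic ribosomal protein genes were taken as every gene of the single-cell RNA table whose symbol starts with Rps or Rpl followed by a digit, which gave 97 of 16498 genes. Of these, 73 encode core proteins of the cytosolic ribosome, 30 of the small and 43 of the large subunit. A further 7 are paralogs of core genes, 7 carry a pseudogene symbol and 10 match by name but encode no ribosomal protein (9 Rps6k kinases and Rps19bp1). The genes were compared between mouse genotypes within cell types, and genes that moved in every cell type were set apart from genes that differed between replicate libraries of one genotype.

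The ribosome joins a small subunit, which reads the messenger RNA, and a large subunit, which forms the peptide bond, and nearly every protein of both is needed in equal number. The messenger RNAs of these proteins are short and abundant. They commonly start with a run of pyrimidines, the 5′ terminal oligopyrimidine (TOP) tract, through which their translation follows growth signals. Their share of a cell's RNA is known to be high in lymphocytes.

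Cells came from the aortic arch, an artery segment prone to atherosclerosis, of mice fed normal chow for 28 weeks (C57BL/6 background, littermate controls). All mice lacked Apoe, the apolipoprotein whose loss raises plasma cholesterol, and Oasl1 was intact in one group (Oasl1+/+Apoe-/-, called Apoe-/- here, 2 libraries) and disrupted by deletion of its promoter and second exon in the other (Oasl1-/-Apoe-/-, 3 libraries). Cells were pooled over mice (n = 6 in the design) and live cells were sorted by DAPI. The labels do not say whether replicate libraries came from separate pools, so p-values measure the spread between these libraries, which may be technical.

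The libraries held 3212 to 4338 cells and 16959976 to 19813039 unique molecular identifiers (UMIs, each 1 captured RNA molecule), with medians of 4495 to 5186.5 UMIs per cell. Oasl1, the targeted gene, had 27 and 16 UMIs in the Apoe-/- libraries against 299, 257 and 315 in the libraries labelled Oasl1-/-Apoe-/-. Since 3′ tags lie outside the deleted promoter and second exon, they do not show the deleted segment itself, and the groups are named by their labels. Loss of the promoter would be expected to lower these tags, so the direction of Oasl1 runs against the labels. Whether the labels of the groups are exchanged was not tested, and an exchange would turn the sign of every difference between groups given here. Macrophages made up 9.61% and 9.18% of the cells in Apoe-/- libraries against 20.9%, 19.8% and 21.3%. Of 18094 distinct cell barcodes, 165 occurred in more than 1 library. Cells were gated by fixed markers that include no ribosomal gene into smooth muscle (9494 cells), endothelial (1037), fibroblast (443), macrophage (2822), monocyte (295), dendritic (196) and NK/T cells (635). At least 6 markers of each type's list were above 0 in every library. Defining markers were more frequent inside their gate than outside it, except Vcan of the monocyte list (9.15% of gated cells against 24.5% of cells in other gates), and Ncr1 was found in 1.26% of NK/T cells. Of 4 haemoglobin genes, which mark red cell RNA, 4 were lower in the libraries labelled Oasl1-/-Apoe-/- in endothelial cells (0.477% of all genes tested were), fibroblasts (0.561%) and monocytes (0.705%). In NK/T cells 2 were lower (0.374%), in smooth muscle cells 1 (2.19%), in dendritic cells 1 (0.201%) and in macrophages none (5.87%). Their summed level in endothelial cells was 4.35 to 67.5 CP10K (UMIs per 10000 UMIs of the cell) against 0.375 to 0.572, and its part in the results was not tested.

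To show the starts of the leading genes, 30 bases centred on the RefSeq start (GRCm38.p6) are printed 5′ to 3′. The longest run of C and T inside this window is in capitals, and a run at its edge may go on outside it. The first 4 genes were lower in at least 6 cell types in the libraries labelled Oasl1-/-Apoe-/-, and the last 2 were the core genes most often higher.
Rps12 (chr10:23787195-23787224, minus strand): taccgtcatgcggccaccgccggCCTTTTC
Rpl5 (chr5:107900513-107900542, plus strand): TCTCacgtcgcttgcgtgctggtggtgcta
Rpl12 (chr2:32961697-32961726, plus strand): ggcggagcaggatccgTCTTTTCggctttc
Rps10 (chr17:27635230-27635259, minus strand): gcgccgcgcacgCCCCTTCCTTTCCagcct
Rpl35 (chr2:39005117-39005146, minus strand): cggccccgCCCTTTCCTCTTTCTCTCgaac
Rps27 (chr3:90213634-90213663, minus strand): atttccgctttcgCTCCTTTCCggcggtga

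Runs of pyrimidines occurred in both sets. A run of C and T of at least 8 bases on the sense strand, within 20 bases of the start on either side, was found in 43.8% of 64 promoters of the 54 core genes in the table, compared with 16% of all 32851 promoters. The 4 genes in the table that were lower in at least 5 cell types had such a run in 3 of 4 promoters. Of the other genes lower in at least 5 cell types, Rpl7, Rps20 and Rpl30 are named only.

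The share of UMIs from the 73 core genes differed widely between cell types. It was highest in NK/T cells (28.2% ± 1.71, SD, n = 5 libraries), followed by dendritic (19.5% ± 2.51), endothelial (17.7% ± 0.574) and monocyte gates (15.9% ± 1.71). Macrophages (12.4% ± 0.504), fibroblasts (12.2% ± 0.482) and smooth muscle cells (11.6% ± 0.343) were lowest. NK/T cells lay above dendritic cells in 5 of 5 libraries, by 8.7 percentage points, and endothelial cells above monocytes in 5 of 5. Dendritic and endothelial cells (higher in 4 of 5) and macrophages and fibroblasts (higher in 4 of 5, by 0.14 points) did not keep their order in every library. The exact two-sided sign-flip test gave p = 0.0625, the smallest that 5 libraries allow, for each neighbouring pair that kept its order, and 0.125 and 0.4375 for the others, so none of the 6 pairs could pass 0.05. Median UMIs per cell were 1654 to 1908 in NK/T cells against 5223 to 5822 in macrophages. Among cells with at least 2000 UMIs the NK/T share was 25.7% to 31.2%, and that of macrophages 11.8% to 13.1%.

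**Figure D1:**
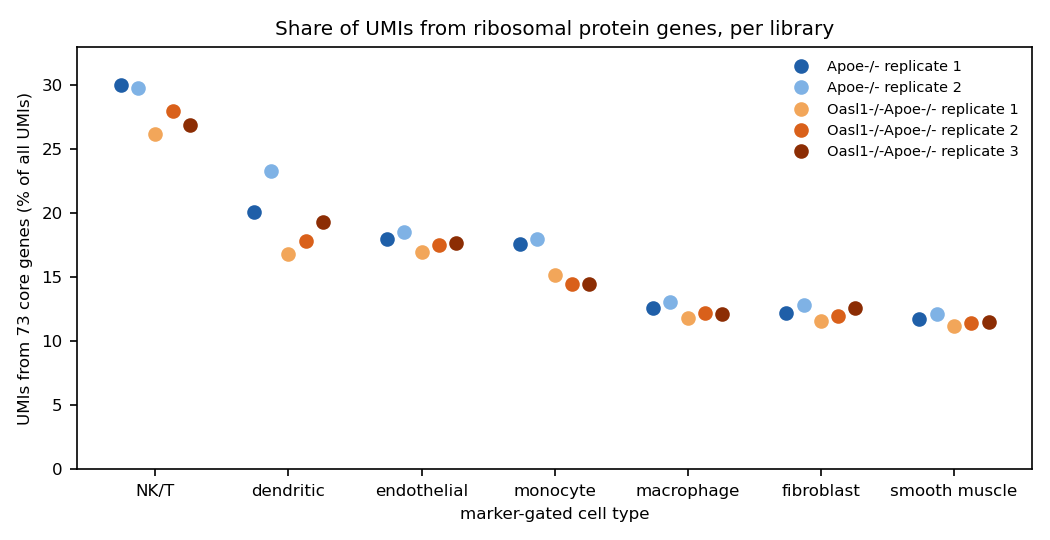
Percent of all UMIs that came from the 73 core ribosomal protein genes (y axis) in each marker-gated cell type (x axis), 1 point per library, blue for Apoe-/- and orange to brown for libraries labelled Oasl1-/-Apoe-/-. NK/T cells lie at 26.2% to 30% and smooth muscle cells at 11.2% to 12.1%, and the groups overlap in fibroblasts alone.

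The share was lower in the libraries labelled Oasl1-/-Apoe-/- in 6 of 7 types with no overlap. In monocytes it was 17.6% and 18% in Apoe-/- libraries, against 15.2%, 14.5% and 14.5%. In NK/T cells it was 30% and 29.8% against 26.2%, 28% and 26.9%. Both differences, -3.06 and -2.87 percentage points, were larger than the spread within either group. In dendritic cells the share was 20.1% and 23.3% against 16.8%, 17.8% and 19.3%, so the Apoe-/- libraries differed from each other by nearly as much as from the other group. In smooth muscle cells (11.7% and 12.1% against 11.2%, 11.4% and 11.5%), endothelial cells (18% and 18.5% against 17%, 17.5% and 17.7%) and macrophages (12.6% and 13.1% against 11.8%, 12.2% and 12.1%) the difference was under 1 percentage point. In fibroblasts (12.2% and 12.8% against 11.6%, 12% and 12.6%) the groups overlapped. The exact two-sided permutation test over 10 splits gave p = 0.1, the smallest this design allows (adjusted over 7 types, 0.117), in each type without overlap and 0.4 in fibroblasts. The ratio of the summed level of small- to large-subunit genes was lower without overlap in the libraries labelled Oasl1-/-Apoe-/- in 4 types. It was 0.838 and 0.857 against 0.835, 0.835 and 0.833 in smooth muscle cells and 0.915 and 0.916 against 0.9, 0.902 and 0.894 in monocytes, and the other two were endothelial cells and macrophages. In NK/T cells, where the groups overlapped, the Apoe-/- libraries had 0.906 and 0.953. Other quantities moved with the share. The mitochondrial share of UMIs in smooth muscle cells was 5.64% to 5.68% in Apoe-/- libraries against 6.34% to 6.45%, and in endothelial cells 3.13% to 3.46% against 2.73% to 2.9%. Median UMIs per endothelial cell were 2579 and 2532 against 3110, 3097 and 3151. Cells that met any gate, B cells and neutrophils included, made up 87.18% and 87.02% of Apoe-/- libraries against 78.53%, 77.99% and 78.69%. Of gated cells, 119 of 295 monocytes and 99 of 196 dendritic cells had only the minimum of 2 markers. With a stricter gate the share differences in these types were -3.91 and -3.46 percentage points. The part of these quantities, or of cell mix within a gate, in the share differences was not tested.

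Single genes were tested with limma on log2(mean CP10K + 0.05) per library, with Benjamini-Hochberg adjustment over all genes of the type and a threshold of 0.05. Differences are on this log2 scale, with negative values where the libraries labelled Oasl1-/-Apoe-/- were lower. Shares in brackets cover all genes tested, down to a mean of 0.05 CP10K, and were not matched to the members in level. In macrophages, 33 of the 89 members tested were lower (5.87% of all genes tested were) and 5 higher (9.06%). Smooth muscle cells had 20 of 90 lower (2.19%) and 12 higher (4.43%). The lower members were all core genes, from both subunits: 15 small and 18 large in macrophages, and 9 small and 11 large in smooth muscle cells. In endothelial cells 8 of 94 members were lower (0.477%) and 2 higher (1.46%), and in NK/T cells 11 of 90 were lower (0.374%) and 2 higher (0.909%). Monocytes had 16 of 88 lower (0.705%) and none higher (1.59%), dendritic cells 4 of 92 lower (0.201%) and none higher (0.362%), and fibroblasts 2 of 88 lower (0.561%) and 1 higher (1.14%). The median difference of the 73 core genes, which all passed the filter on low values in every type, was -0.06 in smooth muscle and endothelial cells, -0.15 in macrophages and -0.32 in monocytes, beside 0.01, -0.02, 0.04 and 0.03 for all genes tested.

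**Figure D2:**
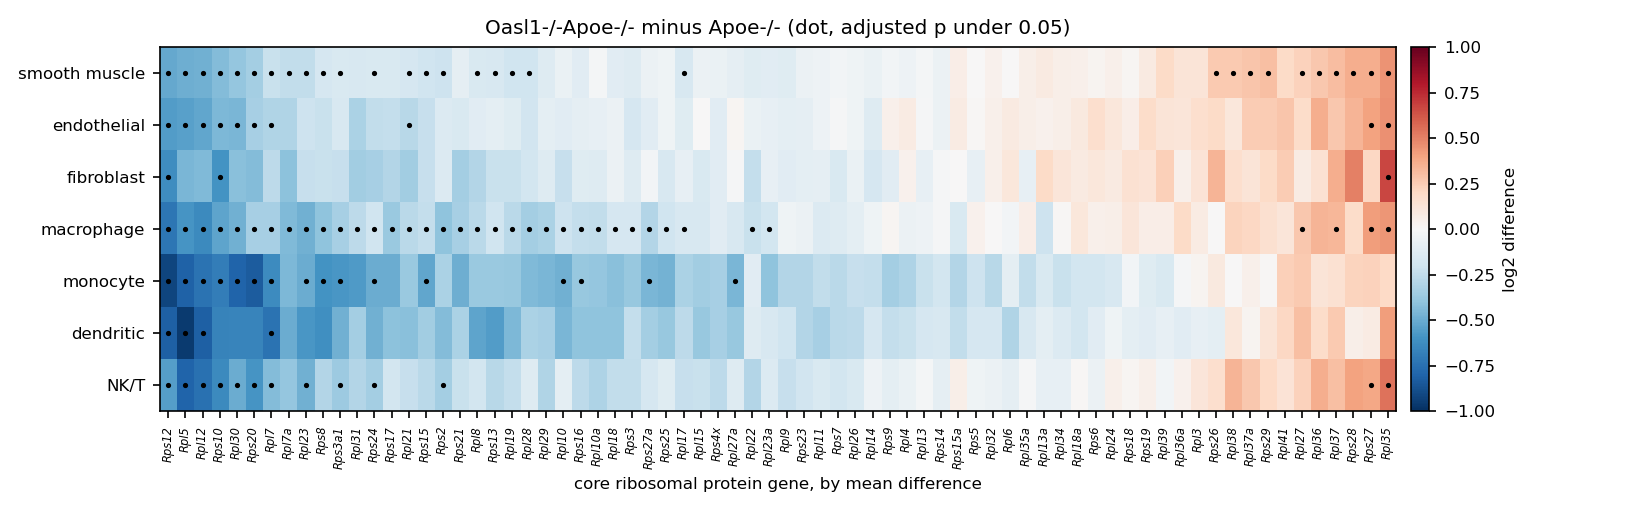
Log2 difference (libraries labelled Oasl1-/-Apoe-/- minus Apoe-/-, colour) of 72 of the 73 core genes (columns, ordered by mean difference) in 7 cell types (rows), with a dot where the limma adjusted p was under 0.05. Rps12, at the left end, has a dot in all 7 types, and Rpl35, at the right end, in 5.

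Rps12 was the 1 member lower past the threshold in all 7 cell types (0.038% of the 5267 genes tested in every type were), and no member was higher in all 7 (0.0759%). The count of members lower in all 7 types was 0 without any 1 library, with the replicate number as a block, with a stricter gate and after centring, and 2 to 7 under 4 other settings. Shares of all genes under these settings are not given here. Rpl5, Rpl12, Rps10 and Rpl7 were lower in 6 types and Rpl30 and Rps20 in 5, so 7 core genes were lower in at least 5 types (0.304%). The groups did not overlap for any of these 7 genes in any of the 7 types, although the range within a group exceeded the difference for Rpl5 in fibroblasts and Rps20 in dendritic cells. In all, 19 of 73 core genes (26%) lay lower without overlap in all 7 types, and none lay higher, beside 0.551% and 0.285% of all genes tested in every type. The difference was below 0 in all 7 types for 42 of the 73 (2.79% of all genes tested in every type) and above 0 for 9 (4.2%), namely Rpl27, Rpl35, Rpl36, Rpl37, Rpl37a, Rpl41, Rps27, Rps28 and Rps29.

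Rps12, a small-subunit protein, is encoded on chromosome 10 (23785183 to 23787275, GRCm38, GENCODE M21, 5 exons). In smooth muscle cells its level was 12.7 and 14.6 CP10K in Apoe-/- libraries and 9.20, 9.67 and 9.89 CP10K in the other group, a log2 difference of -0.51 (SE 0.0544, limma adjusted p = 4.67e-06). In macrophages it was 16.15 and 18.15 against 10.08, 10.47 and 10.48 CP10K (-0.72, SE 0.0601, limma adjusted p = 1.5e-06). In monocytes it was 16.6 and 18.4 against 9.02, 8.85 and 9.87 CP10K (-0.92, SE 0.138, limma adjusted p = 0.000138). Each library labelled Oasl1-/-Apoe-/- lay well below both Apoe-/- libraries. Endothelial cells held 22.7 and 24.7 against 16.0, 16.3 and 15.9 CP10K, and NK/T cells 26.6 and 30 against 18.4, 20.2 and 19.3 CP10K. Fibroblasts held 14.6 and 16.5 against 9.37, 10.9 and 10.0 CP10K, and dendritic cells 18.1 and 24.7 against 11.9, 11.3 and 12.6 CP10K. The log2 differences of these 4 types were -0.56, -0.55, -0.62 and -0.82. Reads of its pseudogene Rps12-ps3, below 0.5 CP10K in every library shown here, cannot be told apart with certainty from those of Rps12.

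Rpl5, which carries the 5S ribosomal RNA into the large subunit and binds Mdm2 when assembly is disturbed, lies on chromosome 5 (107900502 to 107909005, 8 exons). Its level in smooth muscle cells was 9.42 and 9.57 against 6.86, 6.74 and 6.71 CP10K, so replicates of a group agreed within 0.03 on the log2 scale while the groups differed by -0.49 (SE 0.0441, limma adjusted p = 5.29e-07). In NK/T cells it was 19.7 and 19.6 against 10.7, 11.5 and 11.6 CP10K, a log2 difference of -0.80. In endothelial cells it was 9.87 and 10.8 against 7.21, 6.62 and 7.48 CP10K (-0.54), and in macrophages 7.54 and 8.10 against 5.37, 5.11 and 5.08 CP10K (-0.59). The fibroblast libraries, 8.38 and 7.78 against 5.78, 4.90 and 7.04 CP10K, did not overlap either, but the difference missed the threshold (limma adjusted p = 0.178).

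Rpl12, at the base of the stalk that recruits translation factors, lies on chromosome 2 (32961559 to 32965345, 7 exons). Its level in NK/T cells was 37.0 and 39.1 against 22.3, 23.6 and 21.9 CP10K (-0.75, SE 0.0844, limma adjusted p = 1.92e-05). Smooth muscle cells held 10.1 and 10.4 against 7.64, 7.24 and 7.18 CP10K (-0.48), and in macrophages 11.45 and 12.45 against 7.68, 7.68 and 7.56 CP10K (-0.64). Rps10, a small-subunit protein that is ubiquitylated when ribosomes collide, lies on chromosome 17 (27630418 to 27636669, 6 exons). It had 38.0 and 38.5 against 24.2, 24.9 and 24.7 CP10K in NK/T cells (-0.64), and 12.7 and 13.25 against 9.52, 9.68 and 9.67 CP10K in smooth muscle cells (-0.43). For both genes the spread within each group was a small part of the distance between the groups.

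Rpl30, a large-subunit protein, had 9.34 and 10.6 against 7.19, 7.64 and 7.90 CP10K in smooth muscle cells (-0.39, limma adjusted p = 0.000117). Rpl7 had 23.6 and 22.6 against 20.1, 19.9 and 19.3 CP10K there (-0.22), and 28.3 and 29.4 against 19.3, 18.4 and 18.1 CP10K in monocytes (-0.63). Rps20 had 13.6 and 15.1 against 11.04, 11.6 and 11.3 CP10K in smooth muscle cells (-0.34) and 34.0 and 32.4 against 21.2, 23.2 and 21.8 CP10K in NK/T cells (-0.59). None of the 3 overlapped between groups in any type.

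**Figure D3:**
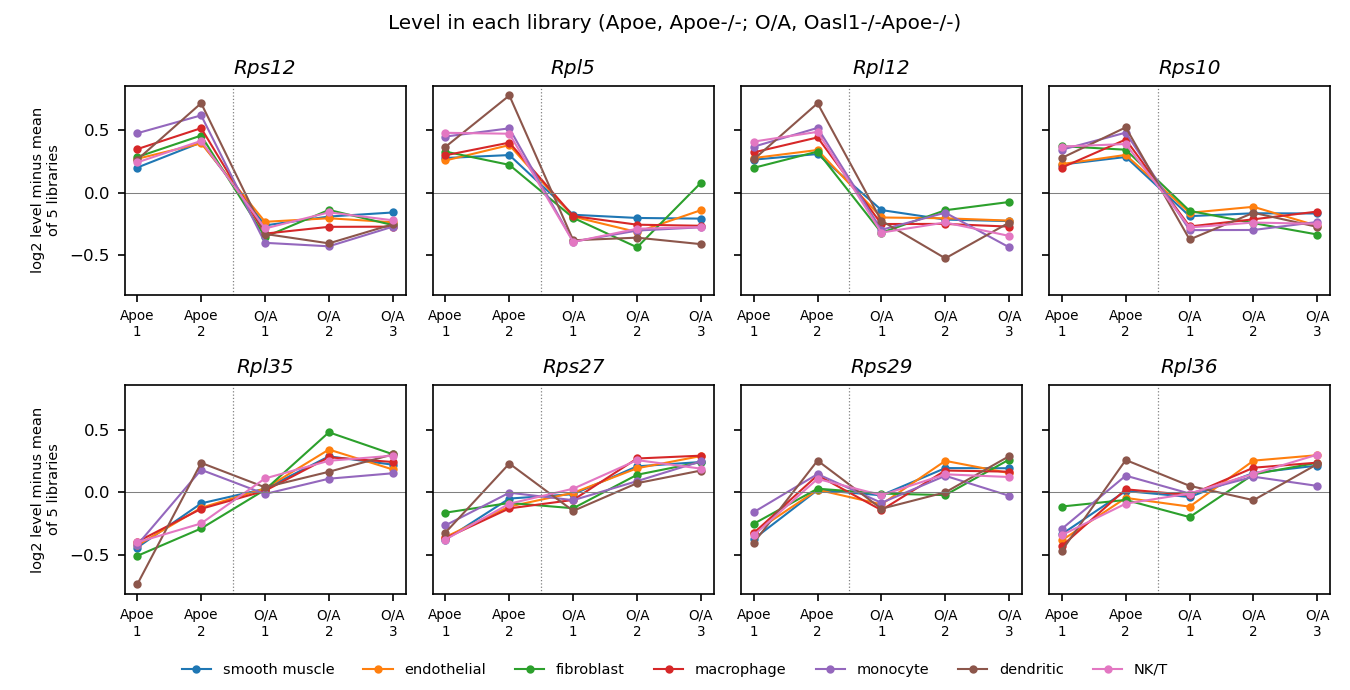
Log2 level of 8 genes in each library minus the mean of the 5 libraries (y axis), 1 line per cell type, with the Apoe-/- libraries left of the dotted line and the libraries labelled Oasl1-/-Apoe-/- (O/A) right of it. Rps12, Rpl5, Rpl12 and Rps10 drop at the dotted line in all 7 types, whereas the groups overlap in all 7 types for Rps29 and in 6 for Rpl36.

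Other core genes also differed between libraries of one group. A gene was called replicate-variable in a type where its larger range within a group was at least 0.2 on the log2 scale and at least as large as the difference between groups. This held for 13 of 73 core genes in smooth muscle cells, beside 12.2% of all genes tested there with at least 1 CP10K, a level that every core gene reached. It held for 11 in endothelial cells (63.1%), 11 in macrophages (24.2%), 20 in NK/T cells (65.8%), 21 in monocytes (68.4%), 22 in fibroblasts (67.3%) and 36 in dendritic cells (76.8%), the type with the fewest cells. Outside smooth muscle cells the share among core genes was no larger than this background. The background was not matched to the core genes in level. The comparison therefore cannot show whether core genes vary more or less than genes of like level. Among core genes with at least 1 CP10K in every type, the largest mean ranges belonged to Rpl35 (0.45), Rpl36 (0.45), Rpl27 (0.44), Rps29 (0.41) and Rps21 (0.41).

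Rps29, a small zinc-binding protein of the small subunit, was replicate-variable in all 7 types. In smooth muscle cells its level was 8.13 and 10.7 CP10K in Apoe-/- libraries against 10.4, 12.1 and 12.1 CP10K, and in macrophages 15.2 and 20.9 against 17.2, 21.5 and 21.3 CP10K. Apoe-/- replicate 1 was lowest and replicate 2 lay within the range of the other group. The smooth muscle difference of Rps29 passed the threshold despite the overlap (0.30, limma adjusted p = 0.0322). Rpl36, of the large subunit, had 5.30 and 6.75 against 6.52, 7.46 and 7.78 CP10K in smooth muscle cells and 5.25 and 7.20 against 6.98, 8.13 and 8.36 CP10K in macrophages, and it too passed in smooth muscle cells with overlap (0.27, limma adjusted p = 0.0435). Rps21 had 5.53 and 6.91 against 5.20, 6.10 and 6.14 CP10K in smooth muscle cells, and 9.52 and 14.4 against 9.35, 10.4 and 10.5 CP10K in NK/T cells. Its replicate 2 of Apoe-/- stood above every other library in these types, and its difference passed in macrophages (-0.33, limma adjusted p = 0.0338). Rpl27 had 2.37 and 2.52 against 2.59, 2.92 and 3.17 CP10K in smooth muscle cells (0.23, limma adjusted p = 0.0434), but 2.363 and 1.775 against 1.68, 2.05 and 2.96 CP10K in fibroblasts, where the groups overlapped.

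The difference between replicate 1 and another library of its group was ordered by the length of the coding sequence, counted without the stop codon. After the values had been seen, core genes were split into 12 of at most 330 nucleotides (Rpl41, Rpl39, Rps29, Rps28, Rpl38, Rps21, Rps27, Rpl37a, Rpl37, Rpl36, Rpl36a and Rpl35a) and 20 above 600. All 12 short genes were higher in Apoe-/- replicate 2 than in replicate 1 in smooth muscle cells (median log2 difference 0.32), while 2 of 20 long genes were (-0.05). Of the libraries labelled Oasl1-/-Apoe-/-, all 12 short genes were higher in replicate 3 than in replicate 1 (0.25), and none of the 20 long genes was (-0.04). The short genes followed the same order in macrophages (12 of 12, medians 0.31 and 0.26), endothelial cells (12 of 12, 0.27 and 0.24) and NK/T cells (12 of 12, 0.30 and 0.17). In fibroblasts 11 of 12 were higher in Apoe-/- replicate 2. In dendritic cells 12 of 12 short genes (0.62) and 18 of 20 long genes (0.22) were higher in that library.

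Across the 73 core genes, Spearman's rho between coding length and the difference of the Apoe-/- replicates was -0.92 in smooth muscle cells, -0.84 in macrophages, -0.80 in endothelial cells and -0.75 in NK/T cells, and weakest in fibroblasts (-0.49). For replicate 3 minus replicate 1 labelled Oasl1-/-Apoe-/- it was -0.92, -0.88, -0.64 and -0.74 in the first 4 types. For replicate 3 minus replicate 2 of that group it was weaker, at -0.35, -0.30, 0.13 and -0.28. Between the groups it was -0.40, -0.36, -0.35 and -0.40. Genes of a library share its depth and preparation, so these values describe the libraries and carry no test. Among the 1340 other genes with at least 1 CP10K in smooth muscle cells, rho with coding length was 0.17 for the Apoe-/- replicates, -0.01 for the replicates of the other group and -0.25 for the difference between groups.

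**Figure D4:**
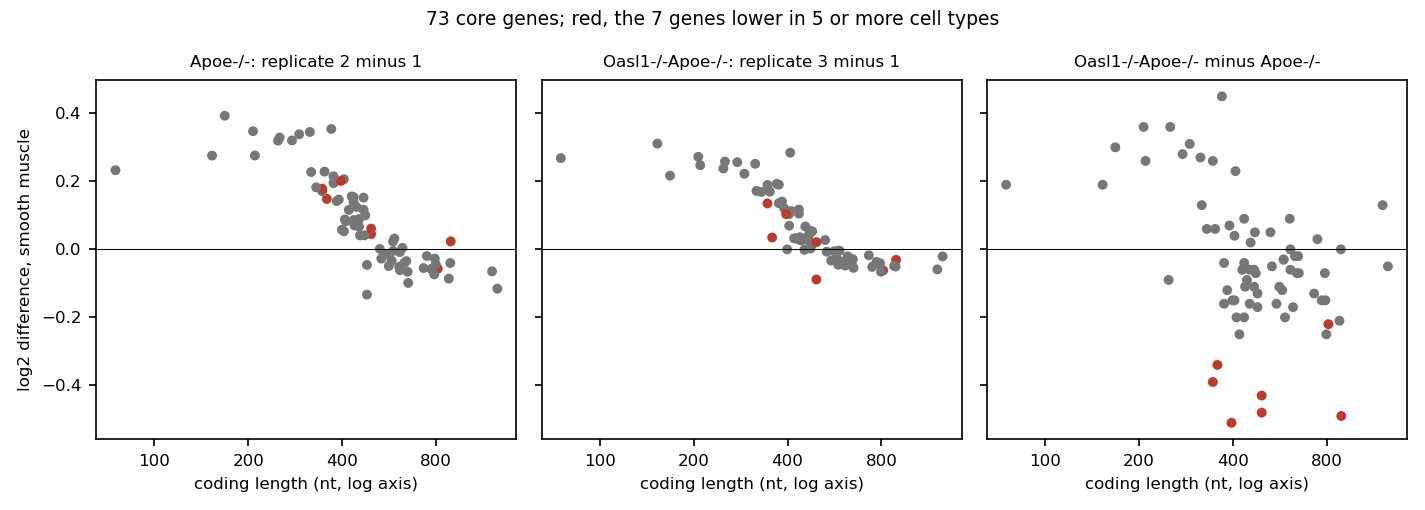
Coding length (x axis, nucleotides, log scale) against log2 difference in smooth muscle cells (y axis) for the 73 core genes, between the Apoe-/- replicates (left), between 2 replicates labelled Oasl1-/-Apoe-/- (middle) and between the groups (right), with the 7 genes lower in at least 5 types in red. Differences between replicates fall with length (rho -0.92 in both), and the red genes lie at -0.51 to -0.22 in the right panel.

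The ratio of the summed level of the 12 short to the 20 long genes put the libraries in nearly the same order in each type. It was 0.224 and 0.284 in the Apoe-/- libraries against 0.277, 0.328 and 0.336 in smooth muscle cells, and 0.28 and 0.357 against 0.352, 0.417 and 0.437 in macrophages. In NK/T cells it was 0.259 and 0.346 against 0.352, 0.402 and 0.42. Apoe-/- replicate 1 was lowest in every type, and Apoe-/- replicate 2 lay close to replicate 1 of the other group.

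Members higher in the libraries labelled Oasl1-/-Apoe-/- were fewer in each of the 7 types, and many of their calls changed when 1 library was left out. Rpl35, of the large subunit (369 nucleotides), was higher in 5 types (0.38% of genes tested in every type were higher in at least 5). In smooth muscle cells its level was 4.72 and 6.05 against 6.57, 7.87 and 7.51 CP10K (0.45, SE 0.0801, limma adjusted p = 0.00152), in NK/T cells 9.27 and 10.3 against 13.2, 14.6 and 15.0 CP10K (0.54), and in fibroblasts 5.96 and 6.94 against 8.62, 11.9 and 10.5 CP10K (0.67). The groups did not overlap there, but they did in monocytes (6.86 and 10.4 against 9.11, 9.93 and 10.2 CP10K) and dendritic cells. Rps27, of the small subunit, was higher in 4 types, with 8.44 and 10.6 against 10.9, 12.7 and 13.01 CP10K in smooth muscle cells (0.36) and 37.2 and 45.4 against 49.4, 57.9 and 55.2 CP10K in NK/T cells (0.39). Its lowest library of the second group lay just above Apoe-/- replicate 2 in smooth muscle cells. Rps28, a small-subunit protein, had 5.13 and 6.54 against 6.61, 7.77 and 7.996 CP10K in smooth muscle cells (0.36, limma adjusted p = 0.0102). Rpl37, of the large subunit, had 9.39 and 11.9 against 11.8, 13.9 and 13.8 CP10K there (0.31, limma adjusted p = 0.0164) and 10.0 and 12.8 against 13.04, 14.5 and 15.5 CP10K in macrophages (0.33, limma adjusted p = 0.0243). Its libraries overlapped in smooth muscle cells and nearly touched in macrophages.

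Without Apoe-/- replicate 1, the members called higher in smooth muscle cells dropped from 12 to 3, and the members called lower rose from 20 to 31. Without replicate 2 or 3 of the other group, 5 and 2 were higher and 9 and 8 lower. Without Apoe-/- replicate 2, 18 were higher and 23 lower, and without replicate 1 of the other group more were higher (14) than lower (12). Shares of all genes called in these fits are not given here. Their median difference in smooth muscle cells was 0.009 to 0.015 for all genes and -0.07 to -0.03 for core genes. Only Rpl35 was higher in smooth muscle cells and in macrophages in the full fit and without each library in turn. Of the members called lower, 8 of 20 held in this way in smooth muscle cells (Rpl12, Rpl23, Rpl30, Rpl5, Rpl7a, Rps10, Rps12 and Rps20), 22 of 33 in macrophages and 5 of 8 in endothelial cells. In monocytes Rps12 alone of 16 held, and in dendritic cells and fibroblasts none did. Without any 1 library, no member was lower in all 7 types.

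Of 7 paralogs, 5 could be tested in each type. Rps27rt, a single-exon copy of Rps27, rose in smooth muscle cells (0.169 and 0.189 against 0.264, 0.25 and 0.243 CP10K, 0.40, limma adjusted p = 0.0068) and macrophages (0.226 and 0.247 against 0.385, 0.343 and 0.427 CP10K, 0.60, limma adjusted p = 0.00977), but its reads are hard to tell from those of Rps27. Rpl22l1, the paralog of Rpl22, rose in smooth muscle cells (4.72 and 5.30 against 5.70, 5.98 and 6.14 CP10K, 0.25, limma adjusted p = 0.00827), and in macrophages its difference was 0.00 on the log2 scale. Rps27l, a p53-induced paralog of Rps27, had 3.64 and 3.97 against 3.69, 4.12 and 4.12 CP10K in smooth muscle cells (0.06), with overlap. Rpl36al (0.09) and Rpl7l1 (0.05) did not pass there, and Rpl39l and Rpl3l were below the filter in all types. No pseudogene symbol and none of the Rps6k kinases, which phosphorylate ribosomal protein S6 or other targets, nor Rps19bp1, passed the threshold in any of the 7 types.

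**Figure D5:**
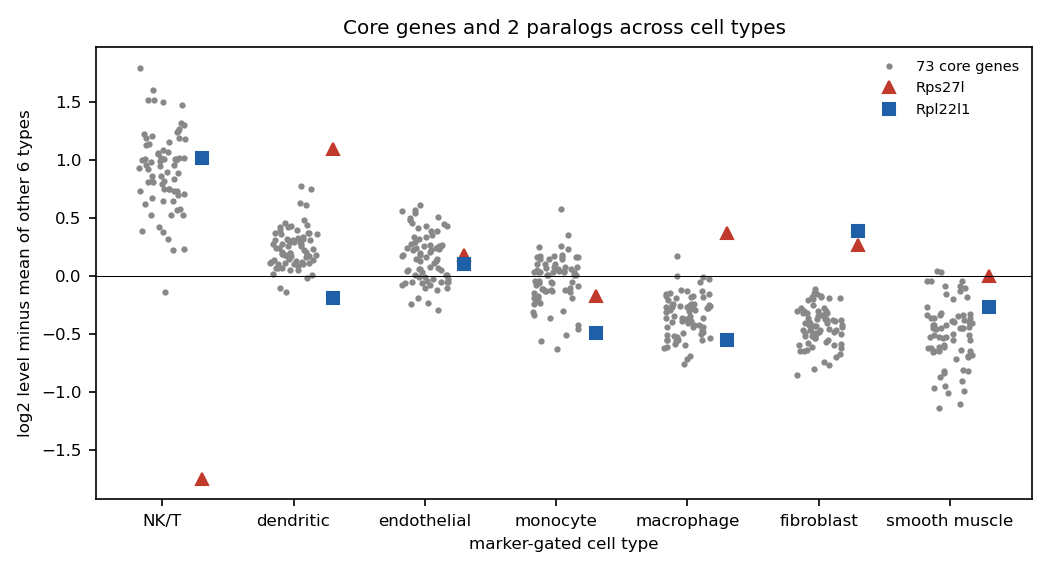
Log2 level of each core gene (grey points) in a cell type minus its mean over the other 6 types (y axis), by type (x axis), with Rps27l as red triangles and Rpl22l1 as blue squares. Core genes have a median of 0.95 in NK/T cells and -0.45 in smooth muscle cells, while Rps27l lies at -1.75 in NK/T cells.

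Core genes were also compared between cell types. In a limma fit with the library as a term, 72 of 73 core genes were higher in NK/T cells than in the mean of the other 6 types (25.5% of 9789 genes were) and 1 was lower (37.7%), with a median of 0.95 on the log2 scale. In dendritic cells 58 were higher (16.2%) and 1 lower (45.9%), in endothelial cells 42 were higher (38.6%) and 5 lower (18%), and in monocytes 16 were higher (16.9%) and 22 lower (44%). Against the other types, 65 were lower (24.5%) and none higher (34.4%) in smooth muscle cells, with a median of -0.45. Fibroblasts had 72 lower (21%) and none higher (31%), with a median of -0.42, and macrophages 65 lower (29.4%) and 1 higher (17.2%), with a median of -0.35. Rps15a (1.80, SE 0.0519, limma adjusted p = 3.23e-25) and Rpl12 (1.61) led in NK/T cells, and Rps28 (-1.14) and Rps19 (-1.11) were the lowest core genes in smooth muscle cells. In macrophages Rps27 was lowest (-0.76), with Rps3a1 (-0.72), while Rps29 was the 1 core gene higher (0.17), and in fibroblasts Rpl27 (-0.86) was lowest.

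Rps27l ran against the core genes: it was lowest in NK/T cells (-1.75, SE 0.0913, limma adjusted p = 7.47e-18), at 1.28, 1.20, 1.11, 1.40 and 1.82 CP10K in the 5 libraries, and higher in macrophages (0.37) and fibroblasts (0.27). Rpl22l1 was higher in fibroblasts (0.39). Among the kinases, Rps6ka1 (RSK1) was higher in macrophages (0.97) and lower in smooth muscle cells (-1.93), fibroblasts (-1.74) and endothelial cells (-0.74). Endothelial cells were higher for Rps6ka5 (1.96), Rps6ka2 (1.90) and Rps6ka3 (1.41), smooth muscle cells for Rps6ka4 (0.83) and fibroblasts for Rps6kb1 (0.46), which encodes S6 kinase 1. NK/T cells were lower for Rps6ka2 (-0.87) and Rps6ka4 (-0.75), and macrophages for Rps6ka5 (-0.76). These kinases were rare, with no UMI of Rps6ka2 in NK/T cells and at most 0.00118 CP10K of Rps6ka1 in smooth muscle cells, so their fitted contrasts depend on the pseudocount. In endothelial cells Rpl27-ps3 (-0.55) and Rpl36al (-0.31) were lower, and Rps27rt was higher in NK/T cells (1.58).

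Of 6 core proteins that the symbol rule misses, Rplp0, the base of the stalk, and Rplp1 were lower in smooth muscle cells, endothelial cells, macrophages, monocytes and NK/T cells. Rplp0 had 23.8 and 22.9 against 17.6, 17.2 and 18.2 CP10K in smooth muscle cells (-0.40, limma adjusted p = 5.15e-06). Rpsa was lower in 4 types. Of 18 translation factors of the TOP class, 3 were lower (2.19% of all genes) and 2 higher (4.43%, Eif3e and Eif4b) in smooth muscle cells. In macrophages 5 were lower (5.87%), in monocytes 4 (0.705%) and in NK/T cells 4 (0.374%), with none higher. The list median was 0.07 in smooth muscle and 0.05 in endothelial cells, beside 0.01 and -0.02 for all genes. It was -0.11 in macrophages, -0.29 in monocytes and -0.06 in NK/T cells, beside 0.04, 0.03 and 0.08. Tpt1, a growth-linked TOP transcript, was lower in all 7 types, with 40.7 and 40.5 against 22.8, 23.4 and 22.4 CP10K in macrophages (-0.83, limma adjusted p = 2.83e-08), and Rack1, a scaffold on the small subunit, in 6. The 27 ribosome biogenesis genes had 1 call in macrophages (Ncl, lower, 5.87% of all genes) and 1 in smooth muscle cells (Nop10, higher, 4.43%). Of 78 mitochondrial ribosomal protein genes, 77 could be tested in macrophages, with 4 lower (5.87%) and 1 higher (9.06%). In smooth muscle cells 2 of them were higher (4.43%), and in fibroblasts 1 was lower (0.561%). Immediate early genes, which respond to handling as well as to signals, were higher in macrophages for 10 of 13 (9.06%) and lower for 1 (5.87%). Their summed level there was 65.2 to 66.5 CP10K in Apoe-/- libraries against 88.8 to 94.6. In NK/T cells 5 of 13 were higher (0.909%), with 52.5 to 53.8 against 75 to 80.2 CP10K. In monocytes 1 of 13 was higher (1.59%), with 81.2 to 83.6 against 93.3 to 109 CP10K. In endothelial cells 2 were lower (0.477%), and in smooth muscle cells 2 were lower (2.19%) and 2 higher (4.43%). The part of these genes in the ribosomal differences was not tested.

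The difference between groups was compared between cell types within libraries. For macrophages minus smooth muscle cells none of 88 members passed the limma threshold (3.19% of 6763 genes did), and 2 had an unadjusted p under 0.05 (Rpl13a and Rps26). For endothelial minus smooth muscle cells none of 90 passed (0.0123% of 8149 genes), and none had an unadjusted p under 0.05. A pseudocount of 0.5 CP10K gave 14 members in the first comparison, and the share of all genes called in that fit is not given here. The median over core genes was -0.07 and 0.00.

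In the whole aorta, with all cells of a library averaged, 26 of 91 members were lower (20.6% of all genes) and 20 higher (20.5%). Fewer cells of a type and less RNA per cell cannot be told apart in such averages, and the libraries differed in cell type makeup, with 2586 and 2831 gated smooth muscle cells against 1420, 1335 and 1322. With every library set to the same cell type shares, 30 members were lower and 5 higher. The share of all genes called in that fit is not given here. Its median difference was -0.11 for core genes and 0.014 for all genes. Rps12 was 15.0 and 16.8 against 10.7, 11.4 and 11.3 CP10K in these averages.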

How the data were processed

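The 5 libraries of mouse aortic arch cells (10x 3′ v2) were analysed. According to the labels, the study's methods and the submitters' processing notes, the authors mapped reads to mm10 with Cell Ranger 3.1.0, filtered cells on gene number and mitochondrial share with Seurat 4.0.3 and removed doublets with DoubletFinder before deposit. No further doublet calling was done. For each cell, the authors scaled UMIs to a total of 10000 and deposited ln(1 + x), a natural log scale. Undoing the log gave whole UMIs within 0.01 for 100% of values. All columns belonged to the 5 libraries.

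The ribosomal genes, gene lists, markers and tests were chosen with earlier results of these data known. Gates required a minimum number of a type's markers and few of other types, with limits not fixed in advance. B cells and neutrophils were too few to test. Mean CP10K per library and type was tested as log2(mean + 0.05) with limma 3.58.1 (R 4.3.3, trend), for genes with a mean of at least 0.05 CP10K, which understates changes of low genes. The fit was tested on simulated counts with noise drawn separately for each gene. Shifts shared across genes, as between the replicates here, were not simulated, so that test gives no error rate for these genes. Shares were compared by exact permutation. Named genes were those called in all types, the 5 largest called changes in each direction in smooth muscle cells, endothelial cells and macrophages, the 5 largest replicate ranges, all paralogs and non-ribosomal matches, and the 3 largest contrasts per direction in 5 types. Rpl7, Rps20 and the other genes outside this rule were named after their values were seen. Coding lengths came from GENCODE M21 (98.78% of symbols matched, with all 97 members), and start sequences from RefSeq. Alternatives are given in the closing section. Results of 2 single genes are not reported here.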

Additional observations from a re-analysis of the deposited data

How the results depend on the processing

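Without each library in turn, members past the threshold numbered 23 to 44 in macrophages, 10 to 41 in smooth muscle cells, 1 to 4 in fibroblasts, 5 to 16 in endothelial cells, 2 to 8 in monocytes, 0 in dendritic cells, 5 to 17 in NK/T cells and 33 to 53 in the whole aorta, and 0 in all 7 types at once. With no filter on low values the counts were 25 in macrophages, 10 in smooth muscle cells and 5 in endothelial cells. Clusters in place of gates gave 22 in endothelial cells, 12 in fibroblasts, 33 in monocytes and 21 in dendritic cells, and 7 members in all 7 types. With UMIs of other genes as the denominator the counts were 26 in monocytes, 20 in NK/T cells and 2 in all 7 types. Centring on the median of all genes gave 24 in NK/T cells, 1 in dendritic cells and 0 in all 7 types. A stricter gate gave 10 in monocytes and 0 in dendritic cells and in all 7 types. Cells with at least 2000 UMIs gave 13 in dendritic cells, 5 in NK/T cells and 2 in all 7 types, and limma-voom gave 10 in dendritic cells and 2 in all 7 types. The share of higher calls in NK/T cells fell from 15.4% to 0% with UMIs of other genes as the denominator and to 4.17% after centring, and in fibroblasts from 33.3% to 0% with limma-voom. The median over all genes in NK/T cells was 0.08 on the log2 scale, and 0.136 with no filter and 0.191 in cells with at least 2000 UMIs. A pseudocount of 0.5 CP10K gave 14 members in macrophages minus smooth muscle cells. The fibroblast share difference turned to 0.0876 percentage points with clusters. Shares of all genes called are not given for any alternative of this section, the replicate block below included. A moved count therefore cannot be read as a change of these members alone. The cause of these moves was not tested.

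Deviations of same-numbered libraries of the groups had correlations of -0.05 to 0.06, so the numbers were not taken as pairs. The ratio of short to long core genes was nevertheless lowest in replicate 1 of each group in all 7 types. In smooth muscle cells it was 0.224 against 0.284 in Apoe-/- libraries, and 0.277 against 0.328 and 0.336 in the other group. Whether the numbers mark a shared preparation was not tested. With the replicate number as a block, 34 members passed in smooth muscle cells, 13 in endothelial cells, 4 in fibroblasts, 37 in macrophages, 12 in monocytes, 0 in dendritic cells, 14 in NK/T cells and 43 in the whole aorta, and 0 in all 7 types. Of 49 pairs of a named gene and a cell type compared between groups, 20 passed under every alternative, and of 28 pairs compared between cell types, under fewer alternatives, 22 did. None turned direction. Dendritic cells, monocytes and fibroblasts held few cells in each library, which limits what could be detected there.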
